A study of Mus musculus with 12 samples.

Results

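The subunits of RNA polymerases I, II and III were followed in mouse T-cell acute lymphoblastic leukemia (T-ALL) cells treated with PKF118-310. Members were all genes of the count files whose symbol is Polr1, Polr2 or Polr3 followed by letters only, which gave 28 of 52535 genes, with 5 Polr1, 13 Polr2 and 10 Polr3 genes. Poly(A) RNA was sequenced from 3 lines, 240, 242 and 352, each as 1 PKF118-310 library and 1 control library, and counts of the 2 files of a library, which the labels name as sequencing lanes, were summed. PKF118-310 is an inhibitor of the contact between β-catenin, the effector of Wnt signaling, and Tcf factors on DNA. The controls received placebo according to the study. Every line, treated or control, is Akt2;Dlx5 double transgenic, with both transgenes driven by the Lck promoter, which is active in immature T cells. According to the study the Akt2 transgene (MyrAkt2) encodes a myristoylated form that is always active. Each line came from the thymic lymphoma of a different animal. A line is therefore 1 tumor. A figure legend of the study speaks instead of separate control and separate treated cultures within a line. The labels were followed, so each line enters as 1 library of either group, and any spread between cultures of a line is not measured.

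RNA polymerase I (Pol I) makes the large ribosomal RNA precursor, RNA polymerase II (Pol II) makes messenger RNA, and RNA polymerase III (Pol III) makes transfer RNA and 5S ribosomal RNA. Each enzyme is built around its own pair of largest subunits, which form the active site, together with an assembly platform, a stalk and peripheral subunits. Some subunits serve more than 1 enzyme, and the gene names hide this. Polr1c and Polr1d belong to Pol I and Pol III, and Polr2e, Polr2f, Polr2h, Polr2k and Polr2l belong to all 3 enzymes. By composition the members were therefore 3 subunits of Pol I alone, 2 shared by Pol I and III, 5 shared by all, 8 of Pol II alone (Polr2m, which binds Pol II and holds it inactive, among them) and 10 of Pol III alone. Output of Pol I and Pol III is high in growing tumor cells. Poly(A) selection leaves their own transcripts outside the measurement, so the counts describe the messages of the enzymes and not what the enzymes made.

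Depth and composition set the treated library of line 242 apart. Its total was 604984 counts, against 3160824 to 13766638 counts in the other 5 libraries, and mitochondrial genes took 11.8% of its counts, against 1.84 to 3.1% elsewhere. A count of 0 there allows up to 4.96 CPM (counts scaled to library size), and members had between 3 and 201 counts in it. The 11 T-cell markers summed to 3116 scaled CPM in this library and to 3384 to 6412 scaled CPM in the others. The 5 B-cell markers summed to 83.5 scaled CPM in it, nearly all from Pax5 with Cd79b at 0, and to at most 3.19 scaled CPM elsewhere. Pax5 was the only B-cell marker with enough counts to be tested in lines 240 and 352, where it rose (edgeR adjusted p = 0.0412). That rise rests on few counts, 7 treated against 1 control in line 240 and 16 against 0 in line 352. In the same lines 2 of 11 T-cell markers fell. The 6 myeloid markers summed to 55.7 scaled CPM in it and to 10.4 to 44.0 scaled CPM in the others, with Lyz2 at 0 in every library. The 6 erythroid markers stayed at or under 0.319 scaled CPM in every library, and the 8 stromal and epithelial markers ran from 45.0 to 77.9 scaled CPM, highest in the treated library of line 242. Nearly all of that sum was Pecam1 in the other libraries. In treated line 242 Pecam1 was lower, at 18.6 scaled CPM, beside Col1a1 at 26.0 (14 counts) and Epcam at 20.4 (11 counts). Whether depth, mitochondrial share or these markers had a part in the values of line 242 was not tested. Results are given with all 3 lines and for lines 240 and 352 alone.

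By ChIP for Tcf7, the study reports binding at a promoter or enhancer of Polr1a and its neighbor Ptcd3. It names Polr1a among key target genes. Sequence between these genes, and that before Polr1b, the other large Pol I subunit gene, are shown because both genes changed below. The window of Polr2m is shown because it was the only member window with the Tcf core motif CTTTGA. Sequences are the 250 bases before the RefSeq transcription start (GRCm38.p6), on the gene's strand. They span chr6:71908803-71909052 for Polr1a (plus strand), chr2:129100746-129100995 for Polr1b (plus strand) and chr9:71485984-71486233 for Polr2m (minus strand). Capitals mark CTTTGA, the wider Tcf/Lef form, which is CTTTG and then 2 bases that are each A or T and which can overlap CTTTGA, and the CCAAT box (CCAAT).
Polr1a: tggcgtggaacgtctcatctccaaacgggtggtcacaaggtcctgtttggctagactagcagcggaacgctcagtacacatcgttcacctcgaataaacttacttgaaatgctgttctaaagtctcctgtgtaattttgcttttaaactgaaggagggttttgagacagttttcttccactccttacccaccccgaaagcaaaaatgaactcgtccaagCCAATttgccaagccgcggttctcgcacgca
Polr1b: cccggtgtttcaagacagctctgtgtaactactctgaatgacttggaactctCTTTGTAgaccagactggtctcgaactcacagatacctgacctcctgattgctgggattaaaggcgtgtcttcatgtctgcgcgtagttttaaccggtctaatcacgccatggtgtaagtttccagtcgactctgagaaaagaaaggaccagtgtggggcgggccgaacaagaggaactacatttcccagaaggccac
Polr2m: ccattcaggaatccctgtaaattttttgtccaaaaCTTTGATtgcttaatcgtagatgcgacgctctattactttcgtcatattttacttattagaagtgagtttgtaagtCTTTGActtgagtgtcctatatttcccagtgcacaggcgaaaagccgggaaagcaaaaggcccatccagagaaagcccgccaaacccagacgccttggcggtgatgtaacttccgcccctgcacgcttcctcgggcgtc
Ptcd3 (chr6:71880638-71908750, minus strand) starts 302 bases from Polr1a and runs the other way, and 52 of these bases, next to Ptcd3, lie outside the Polr1a window. Searched on both strands, CTTTGA stood in the window of 1 of the 22 members with a window and in 13.8% of all 32851 windows. The wider form was found in 2 of the 22, Polr1b and Polr2m, and in 14.8% of all windows. The E-box CACGTG, a Myc-binding motif, was found in 2 of the 22, Polr3c and Polr3gl, and in 6.02% of all windows, and CCAAT in 7 of the 22 and in 33.8% of all windows. The Polr1a window held no Tcf motif and a CCAAT box 31 bases before the start. These are letter matches in a short window and describe no binding. Median GC content was 60.4% over the 24 member windows, and the Polr1a and Polr1b windows were at 47.6% and 49.6%, against a median of 52.4% over all windows.

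All 3 members particular to Pol I rose with PKF118-310 in lines 240 and 352. Polr1a encodes the largest subunit, which makes up the active site with Polr1b. It had 156, 76.1 and 205 scaled CPM (CPM after TMM scaling) in the treated libraries of lines 240, 242 and 352, against 97.7, 174 and 151 scaled CPM in their controls. Treatment thus went with more Polr1a in lines 240 and 352 and with less in line 242, and the groups overlapped. Over lines 240 and 352 the fitted log2 fold change was 0.54 ± 0.11 (SE), or 1.45-fold, with an edgeR quasi-likelihood adjusted p of 0.00810. Polr1b, the second largest subunit, had 128, 42.7 and 117 scaled CPM in treated lines 240, 242 and 352, against 61.5, 121 and 73.3 scaled CPM in the controls. Its change in lines 240 and 352 was 1.78-fold, the largest among the 28 members (log2 0.84 ± 0.12, edgeR adjusted p = 0.00164). Polr1e, part of a peripheral heterodimer that acts in initiation and elongation, had 40.5, 22.3 and 60.1 scaled CPM in treated cells and 30.0, 33.6 and 35.8 scaled CPM in control cells. It was 1.54-fold higher in lines 240 and 352 (log2 0.62 ± 0.14, edgeR adjusted p = 0.0163). The partner of Polr1e in that heterodimer is filed under the symbol Cd3eap, outside the naming rule. Cd3eap rose in the same lines, with 47.2, 18.6 and 47.6 scaled CPM in treated cells, against 31.8, 53.8 and 28.2 scaled CPM in controls (log2 0.68 ± 0.14 in lines 240 and 352, edgeR adjusted p = 0.0105). Twistnb and Znrd1, further Pol I subunits outside the naming rule, did not pass, at log2 changes of 0.20 ± 0.12 and -0.06 ± 0.24 (edgeR adjusted p = 0.340 and 0.909). Of Polr1a's 11.9 kb of exon, 185 bases are shared with the antisense gene Gm26628. The strand setting of the counting is not given in the sources used here, so reads of such pairs may be mixed.

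**Figure D1:**
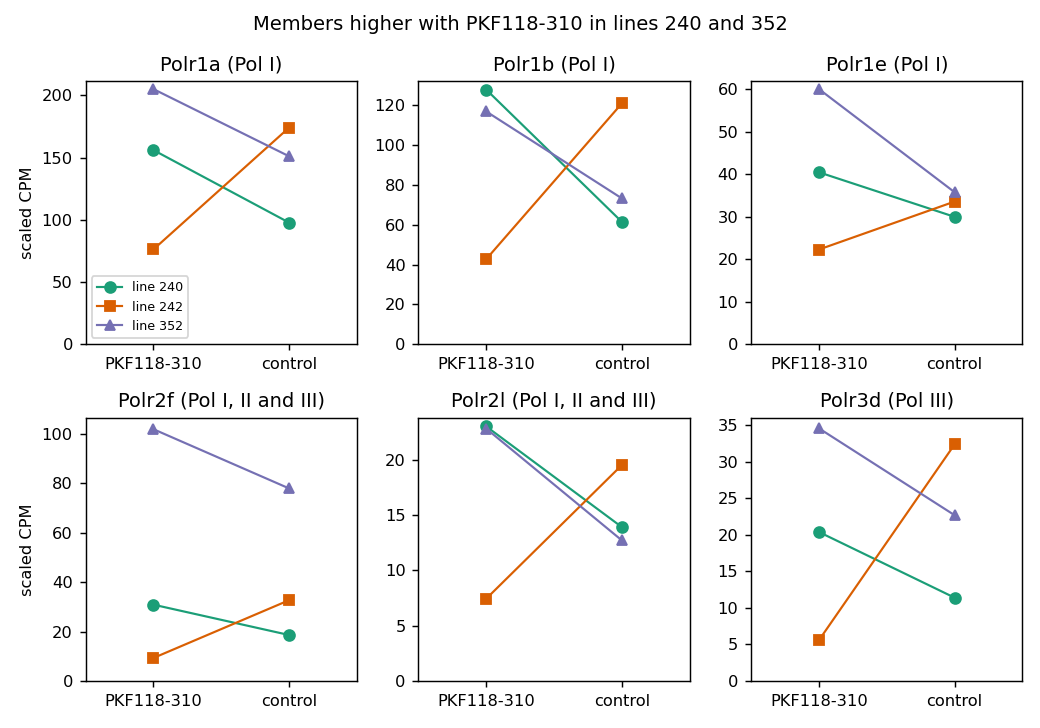
Scaled CPM (vertical axes, from 0) of the 6 members called higher in lines 240 and 352, with the PKF118-310 library at the left and the control library at the right, 1 point per library and a line joining the libraries of 1 cell line. In each panel lines 240 and 352 are higher with PKF118-310 and line 242 is lower.

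The 6 members in that plot were the 3 Pol I members with Polr2f, Polr2l and Polr3d, and 0 members fell, also at an unadjusted edgeR p under 0.05, under which 13 were higher. Over all 11760 genes tested in lines 240 and 352, 5.01% were called higher and 5.92% lower. At an unadjusted edgeR p under 0.05, 1451 of all these genes were higher and 1575 lower. The remaining 22 members were not called. The median fitted log2 change was 0.22 over the 28 members and -0.01 over all genes. By composition the calls took in 3 of 3 Pol I members, or 4 of 6 Pol I subunits when those under other symbols are counted, 2 of the 5 shared by all enzymes, 1 of 10 Pol III members, 0 of the 2 shared by Pol I and III and 0 of 8 Pol II members, where 1, Polr2g, was under an unadjusted p of 0.05. Polr1a and Polr1b passed in each alternative with the cell line as a block other than DESeq2, which called Polr1b alone of the members. Polr1e did not pass in 3 of 10 alternatives. Without the block 0 genes passed, with 2 members and 289 of all genes at an unadjusted edgeR p under 0.05. A fit of these lines has 1 residual degree of freedom. The lines were chosen after both the depth of line 242 and the 0 calls with all lines were known. Whether the share called differs between the enzymes was not tested.

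**Figure D2:**
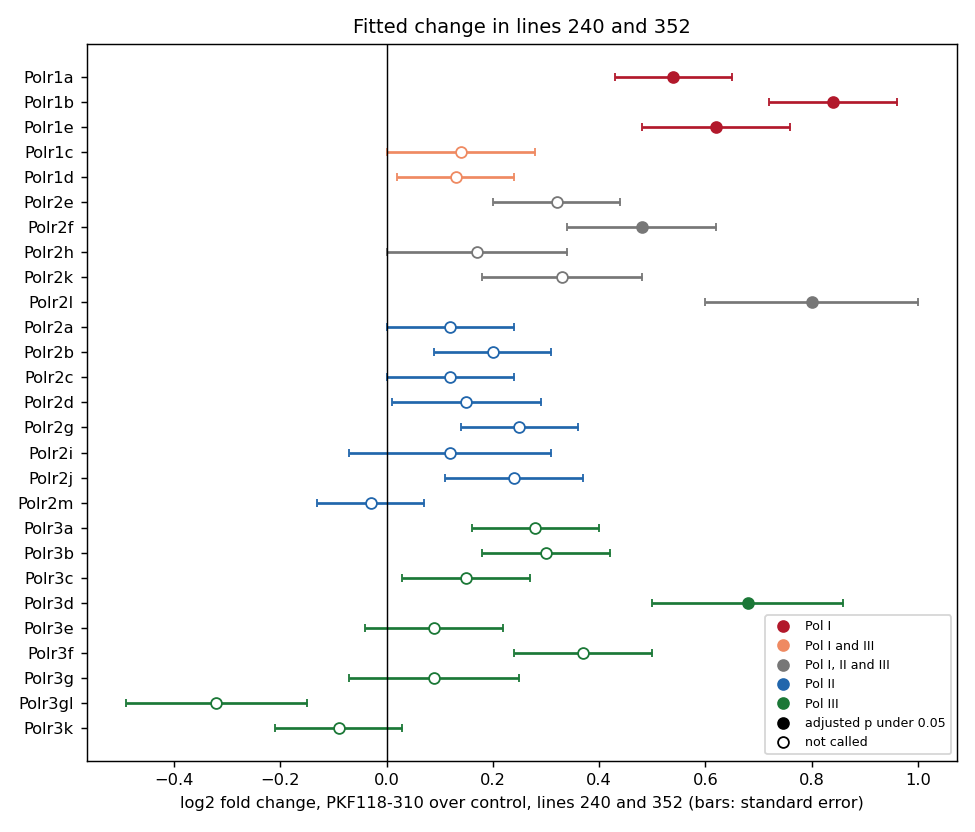
Fitted log2 fold change of 27 members, PKF118-310 over control, in lines 240 and 352 (horizontal axis, bars are 1 SE), with members grouped and colored by the polymerase that holds them. Filled points passed an adjusted p of 0.05. The 3 Pol I members lie between 0.54 and 0.84, and the 8 Pol II subunits lie between -0.03 and 0.25.

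The other subunits of the Pol I enzyme were less uniform. Polr1c and Polr1d form the assembly platform of Pol I and Pol III. Polr1c had 41.1, 33.4 and 62.0 scaled CPM in treated lines 240, 242 and 352, against 42.4, 51.6 and 51.6 scaled CPM in controls (log2 0.14 ± 0.14 in lines 240 and 352, edgeR adjusted p = 0.561). Polr1d was the steadier of the pair, at 110, 104 and 102 scaled CPM in treated cells and 100, 104 and 92.7 scaled CPM in control cells (log2 0.13 ± 0.11, edgeR adjusted p = 0.485). Among the 5 subunits common to all enzymes, Polr2f and Polr2l passed. Polr2f had 30.9, 9.28 and 102 scaled CPM in treated lines 240, 242 and 352, against 18.6, 32.7 and 78.0 scaled CPM in controls, and was 1.40-fold higher in lines 240 and 352 (log2 0.48 ± 0.14, edgeR adjusted p = 0.0411). Polr2l, among the smallest subunits, rested on 72, 4 and 327 counts in treated cells and 56, 62 and 172 counts in control cells. As scaled CPM these are 23.0, 7.42 and 22.8 in treated cells and 13.9, 19.5 and 12.7 in control cells. The change was 1.74-fold in lines 240 and 352 (log2 0.80 ± 0.20, edgeR adjusted p = 0.0238). Polr2e, Polr2h and Polr2k did not pass, with log2 changes of 0.32, 0.17 and 0.33. Polr2f did not pass in 7 of 10 alternatives and Polr2l not in 5 of 10, although both kept a positive change in each of the 10.

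No subunit particular to Pol II was called. Polr2a, the largest subunit, whose tail of heptad repeats recruits RNA-processing factors, had 446, 373 and 481 scaled CPM in treated lines 240, 242 and 352, against 373, 513 and 483 scaled CPM in controls. It was higher with PKF118-310 in line 240, lower in line 242 and level in line 352, and the fitted log2 change in lines 240 and 352 was 0.12 ± 0.12 (edgeR adjusted p = 0.586). Polr2b, the second largest, had 232, 132 and 192 scaled CPM in treated cells and 192, 214 and 175 scaled CPM in control cells (log2 0.20 ± 0.11, edgeR adjusted p = 0.270). Polr2m, an associated protein that restrains Pol II until Mediator acts, had 129, 130 and 167 scaled CPM in treated cells and 133, 166 and 168 scaled CPM in control cells, and its log2 change was -0.03 ± 0.10. The platform subunit Polr2j had 53.6, 48.3 and 51.1 scaled CPM in treated cells, against 42.9, 46.2 and 44.6 scaled CPM in controls. Its groups thus did not overlap over the 3 lines. How many of all genes had such groups was not counted, so Polr2j is not singled out by this. Its difference was small, at a log2 fold change of 0.20 ± 0.16 in the 3-line fit (edgeR adjusted p = 0.845), and 176 exon bases of Polr2j overlap Lrwd1 on the other strand. The stalk subunits Polr2d and Polr2g, with Polr2c and Polr2i, had log2 changes of 0.12 to 0.25 in lines 240 and 352 and none passed.

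Pol III gave 1 call, Polr3d, which did not pass in 5 of 10 alternatives although its change was positive in each. Polr3d, which with Polr3e forms the dimer for termination and reinitiation, had 20.4, 5.57 and 34.6 scaled CPM in treated lines 240, 242 and 352, against 11.4, 32.4 and 22.7 scaled CPM in controls (log2 0.68 ± 0.18 in lines 240 and 352, or 1.60-fold, edgeR adjusted p = 0.0321). Its value in treated line 242 is 3 counts, against 103 in the control, a log2 ratio of -2.54 with an exact counting interval of -4.84 to -0.95. Its partner Polr3e did not pass, at log2 0.09 ± 0.13. Polr3a, the largest subunit, had 60.9, 46.4 and 71.1 scaled CPM in treated cells and 46.4, 57.9 and 61.6 scaled CPM in control cells (log2 0.28 ± 0.12, edgeR adjusted p = 0.182). Polr3b, the second largest, had 100, 63.1 and 63.3 scaled CPM in treated cells and 71.4, 103 and 56.9 scaled CPM in control cells (log2 0.30 ± 0.12, edgeR adjusted p = 0.153). Both large subunits had positive log2 ratios in lines 240 and 352 and did not pass. Polr3f, of the initiation trimer, was outside the threshold as well (log2 0.37 ± 0.13, edgeR adjusted p = 0.0914).

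The alternative subunits Polr3g and Polr3gl occupy the same place in the Pol III initiation trimer. Polr3g is the form known from stem and tumor cells, and Polr3gl is the form of most adult tissues. Polr3g had 40.8, 29.7 and 22.8 scaled CPM in treated lines 240, 242 and 352, against 41.2, 46.9 and 20.1 scaled CPM in controls. Polr3gl had 20.7, 39.0 and 25.1 scaled CPM in treated cells, against 29.5, 18.6 and 28.7 scaled CPM in controls. Neither passed in lines 240 and 352, at log2 changes of 0.09 ± 0.16 for Polr3g and -0.32 ± 0.17 for Polr3gl (edgeR adjusted p = 0.755 and 0.270). Polr3gl had the most negative fitted change of the 28 members there and was the only member above its control beyond counting error in line 242. Per length of exon, Polr3g stood at 0.8, 0.309 and 0.369 of Polr3gl in treated lines 240, 242 and 352, and at 0.568, 1.03 and 0.283 of it in controls. The ratio was thus higher with PKF118-310 in lines 240 and 352 and lower in line 242. It was at most 1.03 in every library, with lengths that are unions of all annotated exons. In scaled CPM without length, Polr3g was above Polr3gl in both libraries of line 240 and in control line 242. It was below Polr3gl in the other libraries. Which form was the more abundant thus depended on the use of length in both libraries of line 240. In lines 242 and 352 the order was the same with and without length, although the ratio of 1.03 in control line 242 is near even. Lengths other than these unions were not tested.

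With line 242 included, no member passed. The fit of all 3 lines called 0 of 10331 genes in either direction (0% of genes higher and 0% lower), with 257 genes higher and 313 lower at an unadjusted edgeR p under 0.05, of which 0 were members. DESeq2 called 45 genes and limma voom with sample weights 801, and of the members DESeq2 called 0 and limma voom 2, Polr1e and Polr2l, both higher. The median log2 change of the members was 0.09, with 21 positive and 7 negative, and over all genes it was 0.00, with 5228 positive and 5103 negative. Taken line by line, the 28 members had a median log2 ratio of 0.30 (line 240), -0.61 (line 242) and 0.19 (line 352). Over all genes tested it lay at 0.00 in lines 240 and 242 and at -0.00 in line 352. Members had a positive ratio in 22, 5 and 25 of 28 cases in lines 240, 242 and 352. Over all 10331 genes tested the ratio was positive for 5176, 5169 and 5137 in the same lines. Exact counting intervals lay above 0 for 15 members and below 0 for 1 in line 240, above 0 for 1 and below 0 for 11 in line 242, and above 0 for 17 and below 0 for 0 in line 352. These intervals cover counting error only. They were computed for the members alone, so no share over all genes stands beside these counts.

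**Figure D3:**
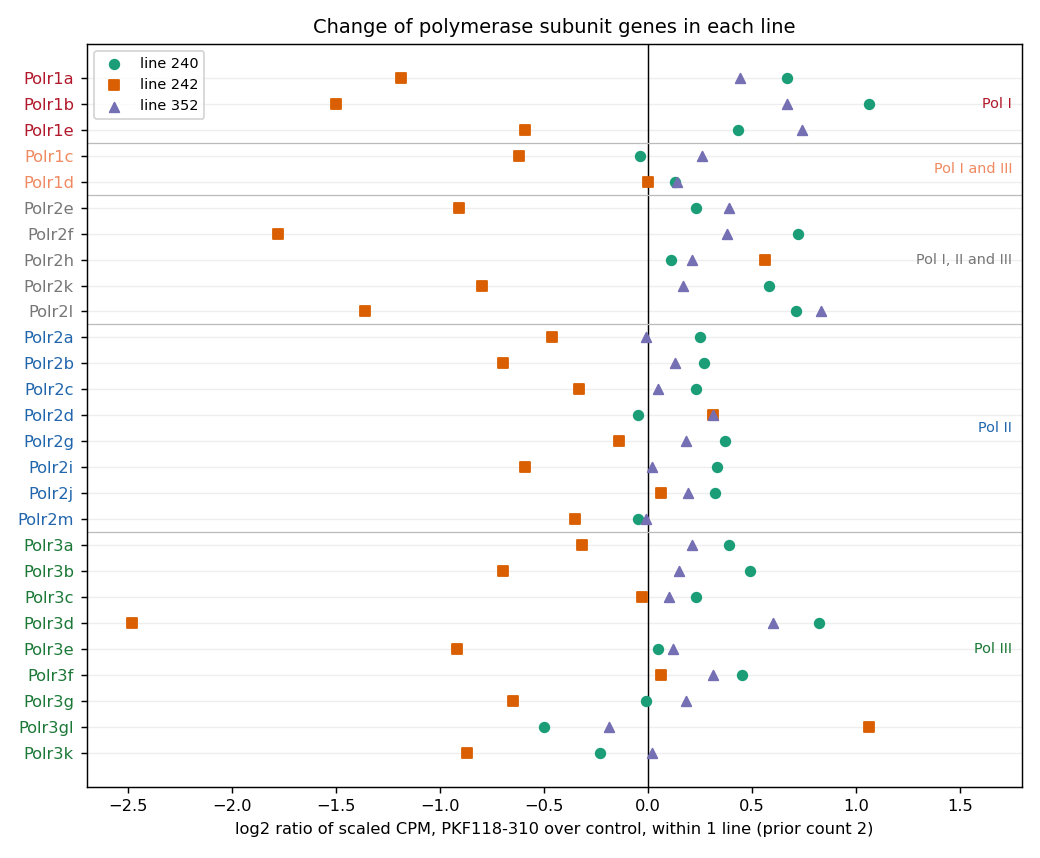
Log2 ratio of scaled CPM, PKF118-310 over control, within each line (horizontal axis, prior count of 2), with 1 row for each of 27 members and 1 symbol per line. Points of line 242 reach from -2.48 to 1.06, those of line 240 from -0.50 to 1.06 and those of line 352 from -0.19 to 0.83.

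Being higher in lines 240 and 352 and lower in line 242 was the pattern of 18 of 28 members (64.3%) and of 18.7% of all genes tested. The count was 3 of 3 for Pol I, 1 of 2 for the subunits of Pol I and III, 4 of 5 for those of all enzymes, 4 of 8 for Pol II and 6 of 10 for Pol III. A test of the difference itself, added after the data were seen, compared the change of line 242 with that of lines 240 and 352. It called 10 members lower and 1 higher in line 242, against 10.6% of all genes called lower and 11.8% called higher. The Pol I subunits Polr1a and Polr1b had the smallest p-values of the members, with a log2 difference of -1.73 ± 0.25 for Polr1a and -2.35 ± 0.31 for Polr1b (edgeR adjusted p = 0.000989 and 0.000614), and they were the members that DESeq2 also called. Polr2e had 58.7, 33.4 and 76.6 scaled CPM in treated lines 240, 242 and 352, against 50.1, 63.2 and 58.6 scaled CPM in controls, and its difference was -1.24 ± 0.34 (edgeR adjusted p = 0.0213). Polr3e had 45.3, 33.4 and 67.3 scaled CPM in treated cells, against 43.7, 63.5 and 61.9 scaled CPM in controls, with a difference of -1.02 ± 0.34 (edgeR adjusted p = 0.0478). Over all genes 2316 were called by edgeR and 486 by DESeq2. After every library was thinned to the depth of the smallest, 1301 genes and 5 members were called, Polr1a, Polr1b, Polr2f and Polr3d among them. Within line 242 the log2 ratio was -1.19 for Polr1a, at 41 counts in treated cells and 552 in the control, and -1.50 for Polr1b, at 23 and 386 counts. The spread of log2 ratios over all genes was also widest in line 242, with an SD of 1.33, against 0.515 in line 240 and 0.473 in line 352. The response of line 242 comes from 1 shallow treated library and cannot be told apart from that library.

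Per length of exon, the messages of Pol II were the most abundant. Median scaled CPM per kb over the 8 Pol II genes was 51.5, 48.2 and 46.2 in treated lines 240, 242 and 352 and 47, 46.5 and 39 in controls. Over the 3 Pol I genes it was 13.1, 6.41 and 17.3 in treated cells and 8.23, 14.6 and 12.6 in control cells. Over the 10 Pol III genes it was 10.4, 8.55 and 12.1 in treated cells and 9.59, 11.8 and 10.7 in control cells. Pol II therefore stood above both other enzymes in every library, and Pol I and Pol III overlapped. The order was led by Polr2g, Polr2a and Polr2m, with medians over the 6 libraries of 66, 65.5 and 61.7 scaled CPM per kb and overlapping ranges, and Polr3d and Polr3f, at 7.55 and 7.5, stood near its end. Not every Pol II subunit was high per length, since Polr2c and Polr2i had medians of 12.7 and 12.3 scaled CPM per kb. For Polr2c this depends on its length of 5.26 kb, of which 953 bases overlap Dok4 on the other strand. Without length it had 53.8 to 68.2 scaled CPM over the libraries. Polr2d, with 1.01 kb and a median of 50.8 scaled CPM per kb, had 37.8 to 59.4 scaled CPM. Polr2a exceeded Polr1a per length by 4.81-, 8.24- and 3.93-fold in treated lines 240, 242 and 352 and by 6.42-, 4.97- and 5.38-fold in controls. Its ratio to Polr3a was steadier, at 6-, 6.63- and 5.57-fold in treated cells and 6.63-, 7.31- and 6.44-fold in control cells. Lengths are unions of all annotated exons and may be longer than the transcripts these cells make, so neighbors in this order are not separated by it.

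**Figure D4:**
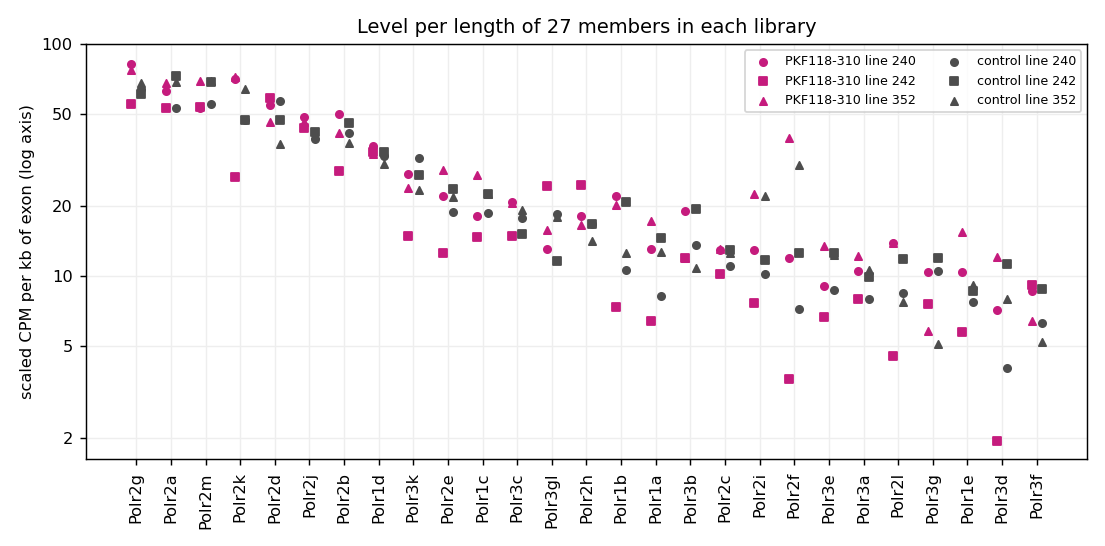
Scaled CPM per kb of exon (vertical log axis) of 27 members in each of the 6 libraries, members ordered by their median, PKF118-310 in magenta left of control in grey, with 1 symbol per line. Polr2g, Polr2a and Polr2m lead with medians of 61.7 to 66, and treated line 242 lies at 1.95 for Polr3d.

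Differences between the lines were tested in the same model. In the fit of all 6 libraries 0 members differed between lines after adjustment, against 5.32% of all genes, with 3 members at an unadjusted edgeR p under 0.05, and DESeq2 called 1, Polr2f, beside 16.1% of all genes. The 3 smallest p-values belonged to Polr2f, Polr3g and Polr2i (edgeR adjusted p = 0.105, 0.147 and 0.149). Polr2f was highest in line 352, at 102 and 78.0 scaled CPM in treated and control cells, against 30.9 and 18.6 in line 240 and 9.28 and 32.7 in line 242. Polr2i, a Pol II subunit that acts in start site selection, was also highest in line 352, at 27.3 and 26.9 scaled CPM in treated and control cells, against 15.6 and 12.4 in line 240 and 9.28 and 14.2 in line 242, and 325 of its exon bases overlap Tbcb on the other strand. Polr3g, given above, was lowest in line 352. Without line 242 the count was 14 of 28 members, beside 44.7% of all genes.

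Factors that work with the enzymes were examined from lists drawn up with the members. Of 7 Pol I initiation factors 1 rose in lines 240 and 352, Rrn3, which carries growth signals to Pol I, with 181, 171 and 161 scaled CPM in treated lines 240, 242 and 352, against 124, 182 and 106 scaled CPM in controls (log2 0.58 ± 0.10, edgeR adjusted p = 0.00451). Ubtf, which binds the ribosomal DNA promoter, was at log2 0.41 ± 0.12 (edgeR adjusted p = 0.0528). Maf1, the repressor of Pol III, fell in those lines, with 60.3, 89.1 and 84.6 scaled CPM in treated cells, against 82.4, 78.9 and 116 scaled CPM in controls (log2 -0.46 ± 0.11, edgeR adjusted p = 0.0226). It was thus lower with PKF118-310 in lines 240 and 352, where Polr1a, Polr1b and Polr1e were higher. In line 242 its log2 ratio was 0.17, from 48 treated and 251 control counts. No counting interval was computed for Maf1, so a rise in line 242 is not established. Calls were otherwise sparse, with 1 of 18 Pol II general factors higher (Gtf2h1 of TFIIH, log2 0.65 ± 0.11), 0 of 15 Pol III factors (4 higher and 2 lower at an unadjusted p under 0.05), 1 of 11 assembly and import factors higher (Ruvbl1, log2 0.46 ± 0.11), 0 of 7 mitochondrial transcription genes (1 higher and 1 lower at an unadjusted p under 0.05) and 1 of 4 subunits outside the naming rule (Cd3eap). No other gene of these lists fell by the test. Ptcd3, a mitochondrial ribosome protein and the divergent neighbor of Polr1a, had 151, 70.5 and 134 scaled CPM in treated cells, against 102, 134 and 97.6 scaled CPM in controls. Ptcd3 rose in lines 240 and 352 (log2 0.51 ± 0.10, edgeR adjusted p = 0.00972) and, like Polr1a, was lower in treated line 242. With 5.01% of all genes called higher, single calls in lists of this size are near the background.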

How the data were processed

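The authors deposited raw counts per gene, 1 file per library and lane, with no normalization. Per the labels, RNA was purified with Trizol and columns and made into stranded poly(A) libraries. HISAT2, HTSeq, edgeR and mm10 appear in the submitters' processing notes, whereas the study's methods give TopHat as aligner. For versions, annotation and strand setting the sources used here give nothing. By the labels a library's files are its lanes, although a figure legend of the study speaks of separate cultures, and their counts agreed within sampling noise in lines 240 and 242 (chi-square per degree of freedom of 0.982 to 1.02) and differed beyond it in line 352 (2.01 and 2.05).

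Lane counts were summed and analysed in R 4.3.3 with edgeR 4.0.16: filterByExpr, TMM scaling and a quasi-likelihood F test that had cell line as blocking factor, and Benjamini-Hochberg adjustment over all genes at 0.05. Residual degrees of freedom were 2 with 3 lines, 1 with lines 240 and 352 and 1 in the fit of the difference of line 242. The block follows from the labels, since control and treated library of a line are the same cells, and libraries of a line deviated together (r = 0.67, 0.30 and 0.79 in lines 240, 242 and 352). As the files of a library were summed, p-values measure the spread between lines, which edgeR moderates with that of other genes. In the difference fit treated line 242 has its own coefficient. Its p-values therefore rest on the spread between lines 240 and 352 and measure no spread of line 242. Each SE of an edgeR change was derived from the test, as the size of the log2 change over the square root of F. Within-line log2 ratios used a prior count of 2 and exact 95% intervals. Exon lengths came from GENCODE vM21 and promoter windows from RefSeq (GRCm38.p6), which held 22 of the 28 members. Starts in the files were shifted to count from 1, and 23 members matched GENCODE. Alternatives used DESeq2 1.42.0 and limma 3.58.1, and the code was tested on simulated counts.

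Members, lists and lines were chosen with earlier results of these data known. Full values are given for the 2 largest subunits of each enzyme, Polr1c, Polr1d, Polr2m, Polr3g, Polr3gl, every member called in lines 240 and 352 or in all 3 lines and the 3 smallest p-values between lines, and up to 2 genes are named from each list. Polr2e, Polr2j, Polr3e, Twistnb and Znrd1 were named after their values were seen. The values of 1 member and of some other genes are not reported here, although counts over the members include it.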

Additional observations from a re-analysis of the deposited data

Results flagged for a closer look

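For 11 members the change with PKF118-310 in line 242 differed from that in lines 240 and 352 by the edgeR test of the difference. As log2 change in line 242 minus that in lines 240 and 352, the negative differences included -3.22 for Polr3d, -2.35 for Polr1b, -2.30 for Polr2f, -2.19 for Polr2l, -1.73 for Polr1a, -1.24 for Polr2e, -1.02 for Polr3e, -1.01 for Polr3b and -0.90 for Polr2b, and 10 of the 11 were negative. The 1 positive difference was 1.38 for Polr3gl, which was 0.24 in thinned libraries (edgeR adjusted p = 0.847) and was not called with library totals (edgeR adjusted p = 0.0526) or by DESeq2 (adjusted p = 0.405). In thinned libraries the differences of Polr2b (-0.65), Polr2e (-0.66), Polr2l (-1.45), Polr3b (-0.89) and Polr3e (-0.84) were not called either. In treated line 242 these genes had between 3 counts (Polr3d) and 71 counts (Polr2b), and the part of its depth and mitochondrial share was not tested.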

How the results depend on the processing

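In lines 240 and 352 the count of 6 members called became 0 without the block by cell line, 1 with DESeq2, and 3 with lane 1 alone, with lane 2 alone and with all 4 libraries thinned to the smaller depth. It was 4 to 7 under the other 5 alternatives, of which halved counts for line 352 were chosen after the data were seen. Each of the 6 kept a positive log2 change in these 10 alternatives. The pairing of libraries by line rests on the labels. With 3 lines, genes called numbered 0 with edgeR, 45 with DESeq2, 801 with limma voom and sample weights and 312 with no filter on low counts, which moved the median of all genes to 0.51, and members called numbered 2 with limma voom. Members that differed between lines numbered 1 with DESeq2, and those whose change in line 242 differed numbered 2 with DESeq2 and 5 in thinned libraries, where the genes called numbered 486 and 1301, against 2316.

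With 1 line left out, genes called ran from 3 to 1285, members called from 0 to 6, and members that differed between lines from 0 to 14, the highest each time without line 242. The 3-line log2 changes ran from -0.34 to 0.54 for Polr1a, -0.32 to 0.84 for Polr1b, -0.03 to 0.62 for Polr1e, -0.37 to 0.48 for Polr2f, -0.13 to 0.80 for Polr2l and -0.53 to 0.68 for Polr3d. With 3 lines the sign also turned for Polr1a with no filter (-0.02), for Polr2f with DESeq2 (-0.04) and thinning (-0.15), and for Polr3d without the block (-0.06) and with DESeq2 (-0.10). Polr2m, near 0 in lines 240 and 352, was at 0.04 with lane 2 alone and 0.04 after thinning. The cause of these shifts was not tested. Depth limits the treated library of line 242, where a minimum of 10 counts in every library left 22 of 28 members to test.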
